A study of Mus musculus with 6 samples.

Results

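The genes described here encode surface proteins that have been used to sort or to select mouse spermatogonia. They are *Mcam*, *Itga6*, *Itgb1*, *Cdh1*, *Thy1*, *Epcam*, *Cd9*, *Cd24a*, *Itgav* and *Tspan8*, 10 of the 53657 gene names counted in each library. They were chosen by name, with earlier results of these data known. All 10 passed the filter on low counts, as did 19656 of all names. The lowest count of any of them in any library was 69 fragments, for *Thy1*.

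RNA was sequenced from spermatogonia of 3 wild-type (WT) adult mice and of 3 adult mice with an inducible *Hras* G12V allele (MUT). HRAS is a small GTPase that relays growth factor signals, and the G12V form is hyperactive. Both groups carried Gfra1-creERT2, a tamoxifen-activated Cre recombinase driven by the *Gfra1* promoter, and a Cre-dependent tdTomato reporter of red fluorescence, and both received tamoxifen. Cells positive for tdTomato and bright for the MCAM protein were collected 3 months later, so every library was selected on the product of *Mcam*, and cells in which Cre had not acted at the reporter were left out of both groups. The question these libraries address is whether the spermatogonia differed between the genotypes at that time.

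Spermatogonial stem cells sit on the basement membrane of the seminiferous tubule among the undifferentiated spermatogonia, and no single surface protein marks them alone. Sorting schemes therefore combine proteins that are abundant on undifferentiated spermatogonia, such as MCAM, the laminin receptor chains alpha 6 (*Itga6*) and beta 1 (*Itgb1*), E-cadherin (*Cdh1*), THY1, EPCAM and the tetraspanin CD9. Integrin alpha V (*Itgav*) has served as a marker of cells to be left out, and graded levels of EPCAM, CD24 and TSPAN8 have been used to subdivide spermatogonia.

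The libraries were of like depth, between 22729292 and 23550433 counted fragments, and 3 counts, taken as the floor of detection, corresponded to 0.127 to 0.132 CPM (counts scaled to library size). *Hras* counted over the whole gene did not separate the groups, with 56.8, 60.1 and 65.2 CPM in WT replicates 1, 2 and 3 and 69.9, 69.1 and 61.0 CPM in MUT replicates 1, 2 and 3. tdTomato, the other feature of the gate, was found at 138 to 173 TPM (counts divided by the length of the gene's exons and then scaled to the same total in each library) in all 6 libraries. The summed level of 11 markers of undifferentiated spermatogonia, among them *Gfra1*, *Ret*, *Zbtb16* and *Dazl*, lay between 2895 and 3378 TPM. RNA of other cells was present as well. The 5 spermatid markers summed to between 3414 and 8187 TPM and the 6 macrophage markers to between 677 and 1217 TPM. WT 3 stood apart from the other WT libraries, with the highest sums for spermatids, spermatocytes, macrophages and Sertoli cells and the lowest for undifferentiated spermatogonia, and MUT 3 had a sum of 97.6 TPM for 6 Leydig cell markers against 15.1 to 29.0 TPM elsewhere.

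None of the 10 genes differed between MUT and WT at an adjusted p below 0.1 in the quasi-likelihood fit of edgeR, adjusted by the Benjamini-Hochberg method. Of all 19656 genes tested, 0.0102% were called in the same fit, so a count of 0 among 10 is near that background. The count was also 0 of 10 when edgeR blocked on replicate number, where 0.0661% of the same 19656 genes were called. It was 0 of 10 as well in DESeq2 (0.0241% of 37271 genes) and in DESeq2 with the block (0.323% of 17045 genes). The DESeq2 shares are over the genes that were given an adjusted p. None of the 10 passed an unadjusted p of 0.05 either, against 2.78% of all genes tested. The 95% confidence interval of the fold change lay within 2-fold in either direction for all 10, as it did for 81.6% of all genes tested and for 97.5% of those with at least 10 CPM. 1 gene of the 10, *Itgav*, had every MUT value below every WT value, an arrangement found in that direction for 3.0% of all genes tested and in either direction for 7.69%. In bulk RNA of this kind, fewer cells that express a gene and less RNA per cell cannot be told apart.

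*Mcam* encodes the immunoglobulin-superfamily adhesion molecule on which the cells were gated. It lies on the plus strand of chromosome 9, from 44134469 to 44142727 in GRCm38. With 13079 to 16552 counts per library it had the highest level per length of the 10 genes, 699 TPM on average, and it ranked 100 of the 19656 genes tested. All libraries were gated on MCAM protein, so its level in ungated cells cannot be told from these data.

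In WT replicates 1, 2 and 3 *Mcam* had 668, 707 and 593 CPM after TMM normalization, edgeR's scaling of library sizes, and in MUT replicates 1, 2 and 3 it had 662, 567 and 559 CPM. MUT 1 fell among the WT values and WT 3 lay below MUT 1, so the groups overlapped. The means were 656 ± 58.1 CPM in WT and 596 ± 57.3 CPM in MUT (SD, n = 3 each). The log2 fold change of MUT against WT was -0.14 (SE 0.102, 95% interval -0.37 to 0.096, adjusted p = 0.998 from edgeR with Benjamini-Hochberg adjustment), which bounds the fold between 0.773 and 1.07. MUT was below WT in each of the 3 same-numbered pairs, and blocking on the number gave an unadjusted p of 0.163 in edgeR.

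The 3 libraries with the most *Mcam* were WT 1, WT 2 and MUT 1. Of the 11 markers of undifferentiated spermatogonia, 3 had the same 3 highest libraries, the GDNF receptor genes *Ret* and *Gfra1* and the transcription factor gene *Etv5*, and the other 8 did not. The share of all genes tested with the same 3 highest libraries is not given here, so this count has no background beside it. *Ret*, the signalling chain of the receptor, had 443, 388 and 276 CPM in WT replicates 1, 2 and 3 and 400, 303 and 301 CPM in MUT replicates 1, 2 and 3. *Lin28a*, an RNA-binding protein gene on the same list, had a different order, with 351, 345 and 324 CPM in WT and 430, 408 and 383 CPM in MUT (log2 fold change 0.26, unadjusted p = 0.0086 and adjusted p = 0.998 from edgeR). The summed list was 3378, 3225 and 2895 TPM in WT replicates 1, 2 and 3 and 3364, 3251 and 3082 TPM in MUT replicates 1, 2 and 3. How far the share of undifferentiated spermatogonia in a library moved *Mcam* was not tested.

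Within a library, the ratio of *Mcam* counts to tdTomato counts sets the 2 features of the gate against each other without any scaling. It was 10.4, 10.8 and 10.6 in WT replicates 1, 2 and 3 and 9.97, 8.70 and 10.6 in MUT replicates 1, 2 and 3. MUT 2 was the lowest and the groups overlapped, with a mean log2 difference of -0.12 (exact two-sided permutation test over 20 assignments, p = 0.3, where 0.1 is the smallest p possible).

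*Mcam* is also known from endothelial cells and pericytes. The 7 endothelial markers summed to between 36.3 and 45.2 TPM in WT and between 32.2 and 42.1 TPM in MUT, and the 5 markers of pericytes and vascular smooth muscle to between 8.82 and 10.6 TPM in WT and between 7.46 and 10.8 TPM in MUT. Both sums overlapped between the groups. The part of these cells in the level of *Mcam* was not tested.

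Among 10582 other genes with at least 10 CPM, the ones whose profile over the 6 libraries was most like that of *Mcam* were *Hlf*, *Acap2* and *Uhrf2*. The measure was the root mean square difference of log2 CPM after each gene was centred on its own mean, and it came to 0.016 for *Hlf*, 0.042 for *Acap2* and 0.047 for *Uhrf2*. *Hlf*, a transcription factor of the PAR bZIP family, had 36.8, 39.3 and 32.4 CPM in WT replicates 1, 2 and 3 and 36.0, 31.8 and 31.1 CPM in MUT replicates 1, 2 and 3.

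**Figure D1:**
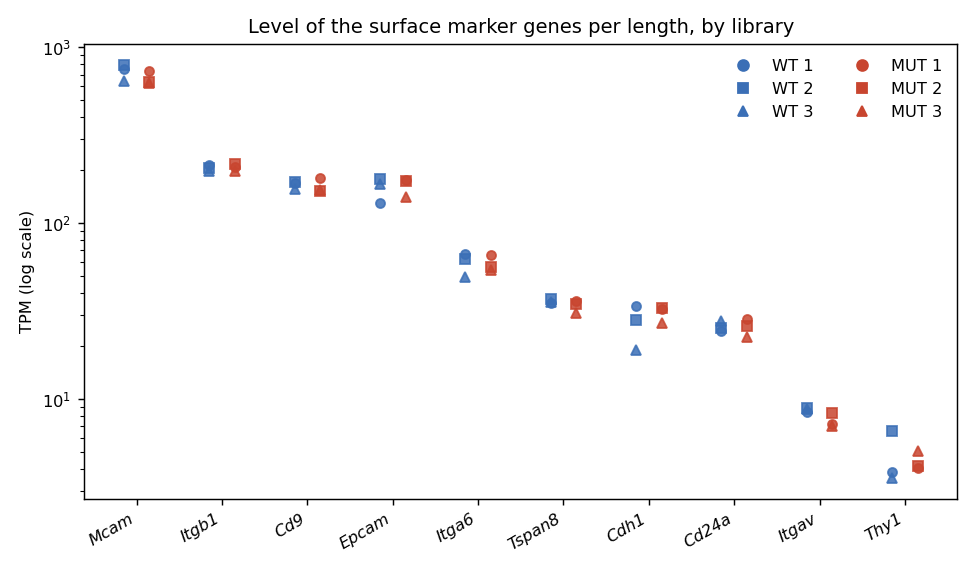
Level of the 10 surface marker genes in TPM on a log axis, one symbol per library, with WT in blue, MUT in red and the replicate number given by the symbol. *Mcam* lies highest at 629 to 797 TPM, *Thy1* lowest at 3.54 to 6.57 TPM, and the spread between libraries is small beside the distance between most genes.

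The order of the mean levels per length, from the top, was *Mcam*, *Itgb1* (207 TPM), *Cd9* (164 TPM), *Epcam* (161 TPM), *Itga6* (59.0 TPM), *Tspan8* (34.9 TPM), *Cdh1* (28.7 TPM), *Cd24a* (25.7 TPM), *Itgav* (8.07 TPM) and *Thy1* (4.52 TPM). Neighbours in this order did not overlap over the 6 libraries, except at 3 places. *Cd9* and *Epcam* traded order, with *Cd9* higher in 3 of 6 libraries. *Tspan8* and *Cdh1* had overlapping ranges although *Tspan8* was higher in each of the 6, and *Cdh1* exceeded *Cd24a* in 5 of 6. The length used here is that of all annotated exons together. With the length of the longest coding transcript in its place 6 of the 10 genes kept their rank, *Cd9* then standing above *Itgb1* and *Cd24a* above *Cdh1*.

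Sequence before the start site was looked up for what the genes share at their promoters. RefSeq promoter windows of 300 bases on GRCm38.p6, from 250 bases before RefSeq's start to 50 after it, were matched for 6 of the 10 genes. In the deposited annotation 50 bases of the window lay inside the gene for *Itgav*, *Itgb1* and *Epcam*, 81 for *Cd9*, 239 for *Mcam* and all 300 for *Tspan8*, whose annotated gene starts farther upstream. The stretches below are the part before RefSeq's start up to the first annotated exon base of the gene itself, and that of *Tspan8* therefore lies within the gene but outside its exons. They are shown for *Mcam* as the gene of the gate, *Itgb1* as the gene that varied least between libraries, *Itgav* as the gene whose groups did not overlap and *Tspan8* as the one with the fewest CpG. Capitals mark CpG dinucleotides.
*Mcam*, chr9:44134408-44134468, plus strand, GRCm38.p6: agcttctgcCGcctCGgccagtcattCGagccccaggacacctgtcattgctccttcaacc
*Itgb1*, chr8:128685404-128685653, plus strand, GRCm38.p6: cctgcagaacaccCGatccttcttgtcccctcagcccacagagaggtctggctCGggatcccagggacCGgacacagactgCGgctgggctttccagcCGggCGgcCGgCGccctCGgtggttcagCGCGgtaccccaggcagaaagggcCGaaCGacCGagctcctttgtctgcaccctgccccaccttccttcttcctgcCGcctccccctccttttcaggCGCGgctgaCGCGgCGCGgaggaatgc
*Itgav*, chr2:83724147-83724396, plus strand, GRCm38.p6: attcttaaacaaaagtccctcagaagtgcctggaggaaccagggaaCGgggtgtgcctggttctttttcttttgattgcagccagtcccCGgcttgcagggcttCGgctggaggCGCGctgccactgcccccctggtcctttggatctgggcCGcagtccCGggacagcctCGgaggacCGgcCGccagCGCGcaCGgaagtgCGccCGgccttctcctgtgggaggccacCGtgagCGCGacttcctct
*Tspan8*, chr10:115817034-115817270, plus strand, GRCm38.p6: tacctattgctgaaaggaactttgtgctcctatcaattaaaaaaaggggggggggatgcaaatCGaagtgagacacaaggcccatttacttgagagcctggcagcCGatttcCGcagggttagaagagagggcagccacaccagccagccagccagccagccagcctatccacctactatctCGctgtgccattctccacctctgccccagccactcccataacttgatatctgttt

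In the whole windows *Mcam* had 29 CpG, *Itgb1* 27, *Itgav* 24, *Cd9* 18, *Epcam* 11 and *Tspan8* 5, beside a median of 7 over all 32851 promoters. The ratio of observed to expected CpG was 0.733 for *Mcam*, 0.798 for *Itgb1*, 0.708 for *Itgav*, 0.689 for *Cd9*, 0.454 for *Epcam* and 0.253 for *Tspan8*, and the median of all promoters was 0.384. *Tspan8* was thus the only one of the 6 below that median. The GC box GGGCGG was searched on both strands, and overlapping copies on a strand were not counted again. It occurred 5 times in the window of *Mcam*, 2 times in that of *Cd9* and 1 time each in those of *Itgb1*, *Itgav* and *Epcam*. The window of *Tspan8* held none, and 35.7% of all promoters held it. None of the 6 windows held TATAAA on either strand, which 13.6% of all promoters held. These counts describe letters in a window and do not show that a factor bound there.

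*Itga6* and *Itgb1* encode the integrin chains that pair as alpha 6 beta 1, a receptor for laminin in the basement membrane. *Itga6* lies on the plus strand of chromosome 2 from 71745616 to 71858416, and *Itgb1* on the plus strand of chromosome 8 from 128685654 to 128733200. *Itgb1* had the highest TPM of all 26 integrin subunits counted and *Itga6* ranked 3, with *Itgb5* between them.

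*Itga6* had 158, 149 and 122 CPM in WT replicates 1, 2 and 3 and 160, 135 and 130 CPM in MUT replicates 1, 2 and 3. WT 3 was the lowest library and MUT 1 the highest, so each group spanned most of the other. The log2 fold change was -0.012 (SE 0.116, 95% interval -0.28 to 0.25, adjusted p = 0.998 from edgeR).

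*Itgb1*, the beta chain shared by many integrins, was the steadiest of the 10 genes. Its values were 230, 223 and 223 CPM in WT replicates 1, 2 and 3 and 230, 237 and 214 CPM in MUT replicates 1, 2 and 3, so both the highest and the lowest library were MUT. The highest exceeded the lowest 1.11-fold, and its coefficient of variation was 1.88% in WT and 5.30% in MUT, where counting alone would give 1.38% in each. The log2 fold change was 0.0099 (SE 0.0687, 95% interval -0.15 to 0.17), which bounds the fold between 0.903 and 1.12.

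The other beta chain known to pair with alpha 6 is beta 4, and *Itgb4* had 5.14 TPM on average against 207 TPM for *Itgb1*. Of the laminin chains, the ligands of this receptor, 11 were counted, 11 were tested and none was called. *Lamb1* and *Lama5* had the highest levels, 119 and 96.8 TPM, and their log2 fold changes were 0.10 and 0.14. *Lama1*, at 4.74 TPM, had the smallest unadjusted p of the laminins, 0.052 in edgeR, with a log2 fold change of 0.30 and every MUT value above every WT value.

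*Itgav* encodes integrin alpha V, a chain of receptors for vitronectin and other proteins with an RGD motif, and lies on the plus strand of chromosome 2 from 83724397 to 83806916. It had 543, 593 and 608 counts in WT replicates 1, 2 and 3 and 474, 546 and 469 counts in MUT replicates 1, 2 and 3. A share of 5.90% of its exon bases is also annotated to another name on the same stretch, and fragments there were not assigned.

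On the normalized scale *Itgav* had 23.7, 25.3 and 25.7 CPM in WT replicates 1, 2 and 3 and 20.7, 23.7 and 20.05 CPM in MUT replicates 1, 2 and 3. WT 1 and MUT 2 were all but equal, at 23.73 and 23.68 CPM, and only by that margin did the groups stay apart, as they also did under DESeq2's scaling. The means were 24.9 ± 1.05 CPM in WT and 21.5 ± 1.93 CPM in MUT (SD, n = 3 each), a log2 fold change of -0.21 (SE 0.0994, 95% interval -0.44 to 0.013). It did not pass the test (unadjusted p = 0.0613 and adjusted p = 0.998 from edgeR with Benjamini-Hochberg adjustment), and the exact two-sided permutation test gave p = 0.1, the smallest it can give with 3 against 3.

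Alpha V pairs with the beta chains 1, 3, 5, 6 and 8. Of these *Itgb1* stood at 207 TPM, *Itgb5* at 70.2 TPM, *Itgb3* at 15.2 TPM and *Itgb8* at 0.900 TPM, while *Itgb6* had no more than 4 counts in any library and was not tested. *Itgb5* had 71.4, 71.5 and 65.3 CPM in WT replicates 1, 2 and 3 and 56.9, 49.9 and 63.8 CPM in MUT replicates 1, 2 and 3. As with *Itgav*, every MUT value was below every WT value. Its log2 fold change was -0.29 (SE 0.0959, 95% interval -0.51 to -0.067, unadjusted p = 0.016), and it was not called after Benjamini-Hochberg adjustment in edgeR (adjusted p = 0.998). *Itgb3*, which had 23.7 CPM on average in WT and 24.2 CPM in MUT, overlapped between the groups.

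The macrophage markers summed to 925, 790 and 1217 TPM in WT replicates 1, 2 and 3 and to 677, 804 and 878 TPM in MUT replicates 1, 2 and 3. WT 3 was the highest and MUT 1 the lowest, and the groups overlapped. WT 3 also had the most *Itgav* of all libraries, and the least *Itgb5* of the WT libraries. MUT 3, the highest of the MUT libraries in that sum, had the least *Itgav* of all libraries and the most *Itgb5* of the MUT libraries. *Itgb2*, the beta chain of leukocytes, had 22.5, 19.3 and 28.6 CPM in WT and 15.5, 18.3 and 19.7 CPM in MUT, with a log2 fold change of -0.40 and an unadjusted p of 0.037 in edgeR. The part of macrophage RNA in the levels of *Itgav* and *Itgb5* was not tested.

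The ratio of *Itga6* to *Itgav* sets the selected alpha chain against the one used for exclusion. In counts it was 6.67, 5.87 and 4.74 in WT replicates 1, 2 and 3 and 7.73, 5.70 and 6.49 in MUT replicates 1, 2 and 3. WT 3 was the lowest and MUT 1 the highest, the groups overlapped, and the mean log2 difference of 0.21 did not separate them (exact two-sided permutation test, p = 0.5).

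**Figure D2:**
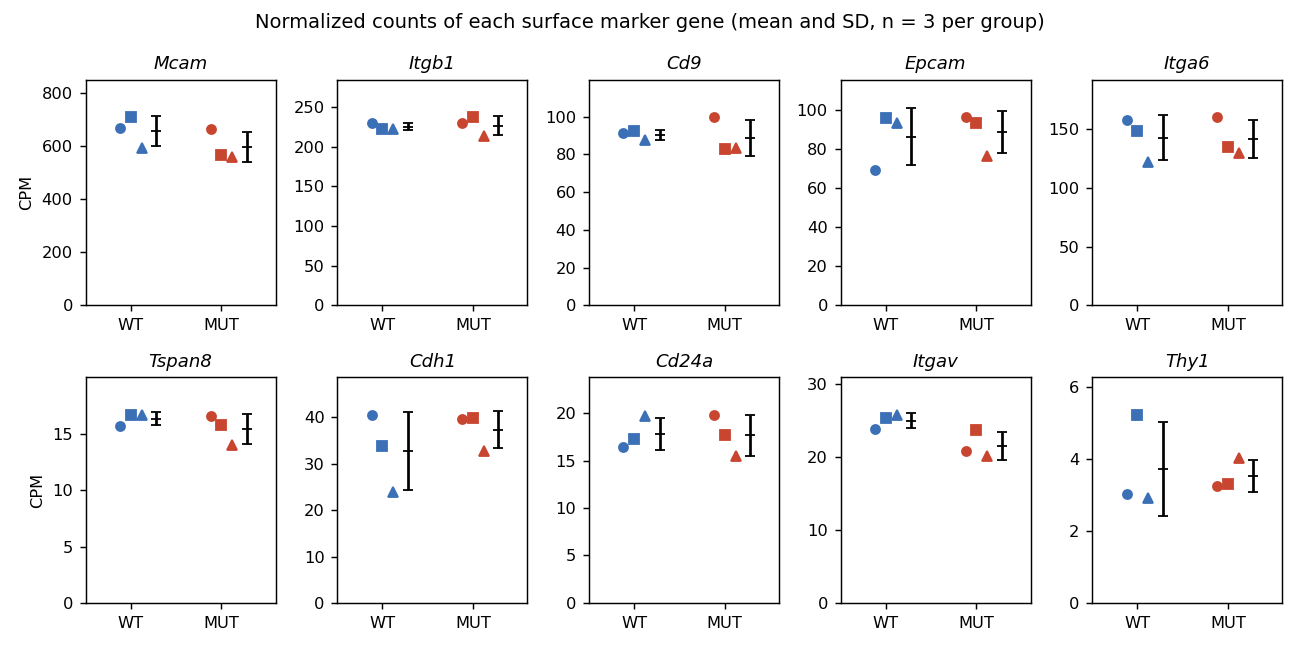
TMM-normalized CPM of each gene in the 3 WT libraries (blue) and the 3 MUT libraries (red), with circles for replicate 1, squares for replicate 2, triangles for replicate 3, and bars for the mean and SD; each axis starts at 0. *Itgav* is the panel without overlap between groups, 23.7 to 25.7 CPM in WT against 20.05 to 23.7 CPM in MUT.

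*Cdh1* encodes E-cadherin, the adhesion protein of epithelia that undifferentiated spermatogonia also carry. It lies on the plus strand of chromosome 8 from 106603351 to 106670246 and had 564 to 927 counts. The values were 40.5, 33.9 and 23.8 CPM in WT replicates 1, 2 and 3 and 39.6, 39.8 and 32.7 CPM in MUT replicates 1, 2 and 3. WT 3 stood below all others and WT 1 above all others.

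The WT spread of *Cdh1*, a coefficient of variation of 25.6% where counting alone would give 3.62%, left a wide interval. The means were 32.8 ± 8.40 CPM in WT and 37.4 ± 4.03 CPM in MUT (SD, n = 3 each), and the log2 fold change of 0.19 had an SE of 0.178 and a 95% interval from -0.22 to 0.60 (adjusted p = 0.998 from edgeR). Without WT 3 the log2 fold change was 0.0052. Of the partners of E-cadherin, *Ctnnb1* (beta-catenin, 358 TPM) and *Ctnna1* (alpha-catenin, 222 TPM) were the most abundant of the 11 cadherins and catenins counted, with log2 fold changes of -0.00016 and 0.096, and none of the 11 was called. P-cadherin, *Cdh3*, at 31.6 TPM, was near the level of *Cdh1*.

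*Epcam* encodes an epithelial adhesion molecule and lies on the plus strand of chromosome 17 from 87635979 to 87651106. It had 69.6, 96.3 and 93.5 CPM in WT replicates 1, 2 and 3 and 96.5, 93.7 and 76.5 CPM in MUT replicates 1, 2 and 3. Each group had 1 low library, WT 1 and MUT 3, and 2 libraries above 90 CPM. The log2 fold change was 0.040 (SE 0.136, 95% interval -0.27 to 0.35, adjusted p = 0.998 from edgeR). Of the 9 genes listed with EPCAM and the claudins, which seal tight junctions, *Epcam* had the highest TPM, and *Cldn3*, the next, had 21.5 TPM. None of the 8 tested was called, and *Cldn5*, an endothelial claudin, had the lowest unadjusted p, 0.117 in edgeR, with a log2 fold change of -0.54.

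*Cd9* and *Tspan8* encode tetraspanins, proteins with 4 membrane spans that gather integrins and other proteins into membrane domains. *Cd9* spans 125460266 to 125494791 of chromosome 6, minus strand, and *Tspan8* on the plus strand of chromosome 10 from 115816832 to 115849893. Of the exon bases of *Cd9*, 10.7% also belong to another annotated name, where fragments were not assigned.

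*Cd9* had 91.4, 92.5 and 87.5 CPM in WT replicates 1, 2 and 3 and 99.7, 82.7 and 83.5 CPM in MUT replicates 1, 2 and 3. The WT values lay inside the MUT range, and the log2 fold change was -0.029 (SE 0.0849, 95% interval -0.22 to 0.16, adjusted p = 0.998 from edgeR). *Tspan8* had 15.7, 16.7 and 16.7 CPM in WT replicates 1, 2 and 3 and 16.6, 15.7 and 14.0 CPM in MUT replicates 1, 2 and 3. MUT 3 was its lowest library and the groups overlapped, with a log2 fold change of -0.083 (SE 0.109, 95% interval -0.33 to 0.17, adjusted p = 0.998 from edgeR).

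Among the 29 tetraspanins and partner proteins *Cd9* ranked 2 by TPM, after *Tspan14* at 174 TPM, and *Tspan8* ranked 10. *Cd151*, a tetraspanin that binds laminin-receptor integrins, had 115 TPM and a log2 fold change of -0.054. *Igsf8*, a partner of CD9 and CD81, had the lowest unadjusted p of this list, 0.071 in edgeR, and a log2 fold change of 0.16. None of the 28 tested was called.

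*Thy1* and *Cd24a* encode small proteins held in the membrane by a lipid anchor. *Thy1* lies on the plus strand of chromosome 9 from 44043384 to 44048579, and *Cd24a* on the plus strand of chromosome 10 from 43578284 to 43584265. *Thy1* was the lowest of the 10 genes per length, below *Itgav* in every library, and stood at the 29.4 percentile of the genes tested.

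*Thy1* had 69, 122 and 69 counts in WT replicates 1, 2 and 3 and 74, 76 and 94 counts in MUT replicates 1, 2 and 3, which came to 3.02, 5.21 and 2.92 CPM and to 3.23, 3.30 and 4.02 CPM. WT 2 was the highest, and its distance from the other WT libraries gave a coefficient of variation of 34.96%, where counting alone would give 10.7%. The log2 fold change of -0.079 (SE 0.257, 95% interval -0.66 to 0.51, adjusted p = 0.998 from edgeR) was the least certain of the 10, and without WT 2 it was 0.23. THY1 is also a T cell protein. The 5 T cell markers summed to between 17.7 and 21.9 TPM in WT and between 18.3 and 21.7 TPM in MUT, with *Cd3g* at or under 3 counts in every library, and the highest sum was in WT 1. The part of T cells in the level of *Thy1* was not tested.

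*Cd24a* had 16.5, 17.3 and 19.7 CPM in WT replicates 1, 2 and 3 and 19.8, 17.7 and 15.4 CPM in MUT replicates 1, 2 and 3. The MUT values enclosed the WT values, and the log2 fold change was -0.012 (SE 0.127, 95% interval -0.30 to 0.28, adjusted p = 0.998 from edgeR).

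**Figure D3:**
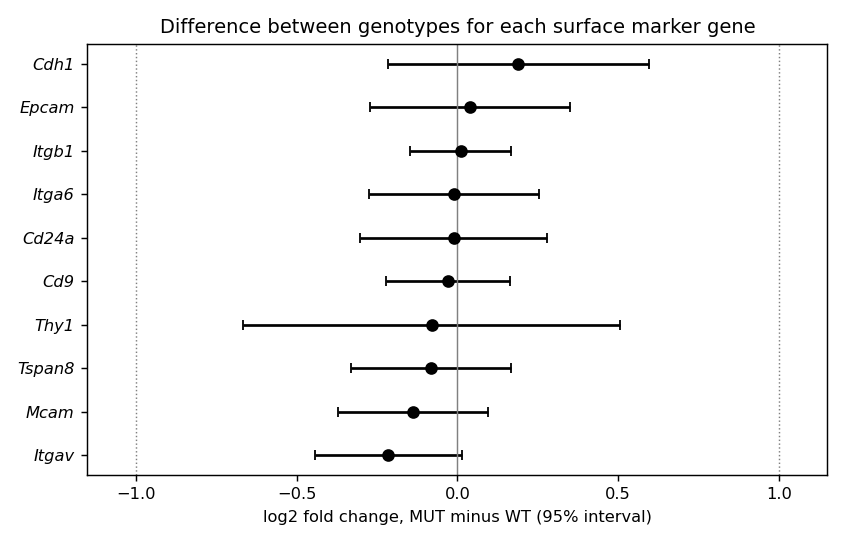
Log2 fold change of MUT against WT for each gene with its 95% confidence interval, from edgeR's quasi-likelihood fit of 3 libraries per group; the solid line marks no change and the dotted lines 2-fold. Every interval includes 0 and lies within 2-fold, from *Itgav* at -0.21 to *Cdh1* at 0.19.

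The genes varied between libraries in different ways. By the same measure as above, the pair of genes most alike over the 6 libraries was *Mcam* and *Cd9* (root mean square difference 0.074), followed by *Cd24a* and *Tspan8* (0.077), and the pair most unlike was *Cdh1* and *Thy1* (0.38). The measure is not scaled to the spread of a gene, so genes that vary little can score as alike without a shared pattern. MUT 3 was the lowest library for *Mcam*, *Itgb1*, *Cd24a*, *Itgav* and *Tspan8*, and MUT 1 the highest for *Itga6*, *Epcam*, *Cd9* and *Cd24a*. The largest ratio of highest to lowest library was 1.79-fold, for *Thy1*, followed by 1.70-fold for *Cdh1*.

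The genes around these markers were taken as 7 lists of adhesion families and other sorting markers, 107 genes in all, of which 106 had a row and 101 were tested. *Mcam*, *Thy1* and *Cd24a* are in none of these lists. None was called in the edgeR fit. An unadjusted p under 0.05 was found for 5 of the 101, 3 higher and 2 lower in MUT, or 4.95% beside 2.78% of all genes tested. The groups did not overlap for 4 genes higher and 4 lower, 3.96% each, where all genes tested had 4.69% and 3.0%.

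Beside *Itgb5* and *Itgb2*, the 5 genes were *Itga9* and *Itga10*, singled out here after their values were seen, and *Kit*, the receptor that marks differentiating spermatogonia. *Itga9* had 14.99, 12.8 and 13.0 CPM in WT replicates 1, 2 and 3 and 17.0, 15.8 and 16.7 CPM in MUT replicates 1, 2 and 3, a log2 fold change of 0.28. *Itga10* had 9 to 20 counts in WT and 25 to 26 in MUT, a log2 fold change of 0.88. *Kit* had 136, 166 and 124 CPM in WT and 155, 226 and 164 CPM in MUT, with a log2 fold change of 0.36 and an unadjusted p of 0.050 in edgeR. The groups of *Kit* overlapped, but MUT was higher in all 3 pairs of libraries with the same number, and blocking on that number gave an unadjusted p of 0.0012 and an adjusted p of 0.24 in edgeR. Under that block 11 of the 101 genes had an unadjusted p under 0.05, as did 1297 of all 19656 genes tested. None of the 101 was called.

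Of the 12 integrin adaptors, which act at the tails of integrins inside the cell, *Ptk2* (focal adhesion kinase, 93.5 TPM) and *Tln1* (talin, 89.2 TPM) were the most abundant, with log2 fold changes of 0.064 and 0.093. *Fermt3*, the kindlin of blood cells, had the lowest unadjusted p of them, 0.204 in edgeR. The class I histocompatibility gene *H2-K1*, used to leave out somatic cells, had 121, 138 and 210 CPM in WT replicates 1, 2 and 3 and 115, 124 and 159 CPM in MUT replicates 1, 2 and 3, so replicate 3 was the highest in each group.

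**Figure D4:**
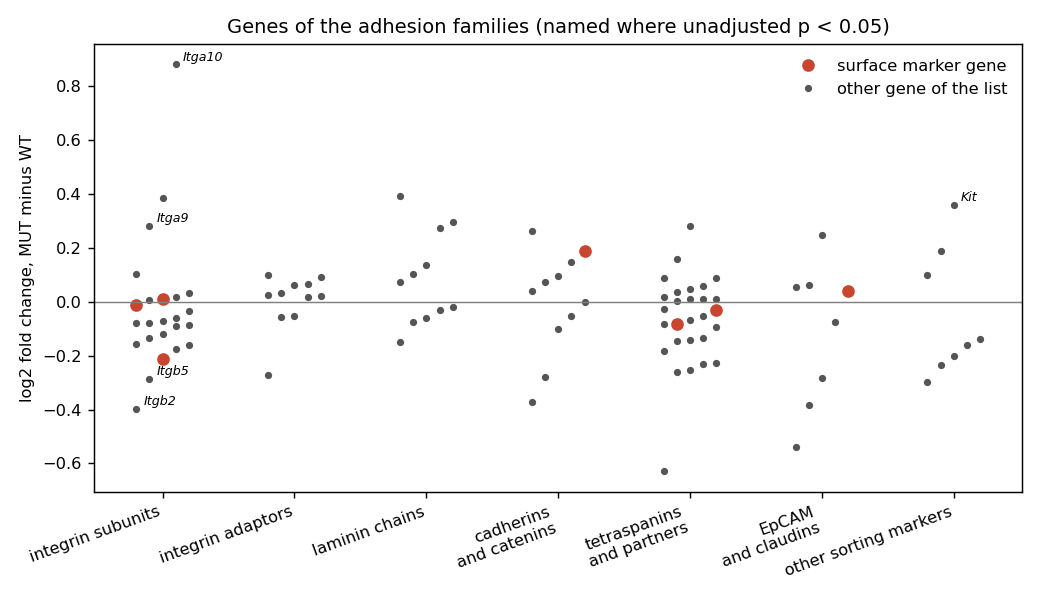
Log2 fold change of MUT against WT for each tested gene of the 7 lists, with the surface marker genes as large red points and the other genes as small grey points; genes with an unadjusted p below 0.05 are named. The marker genes lie between -0.21 and 0.19, within the spread of their families, and *Itga10* at 0.88 lies farthest from 0.

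**Figure D5:**
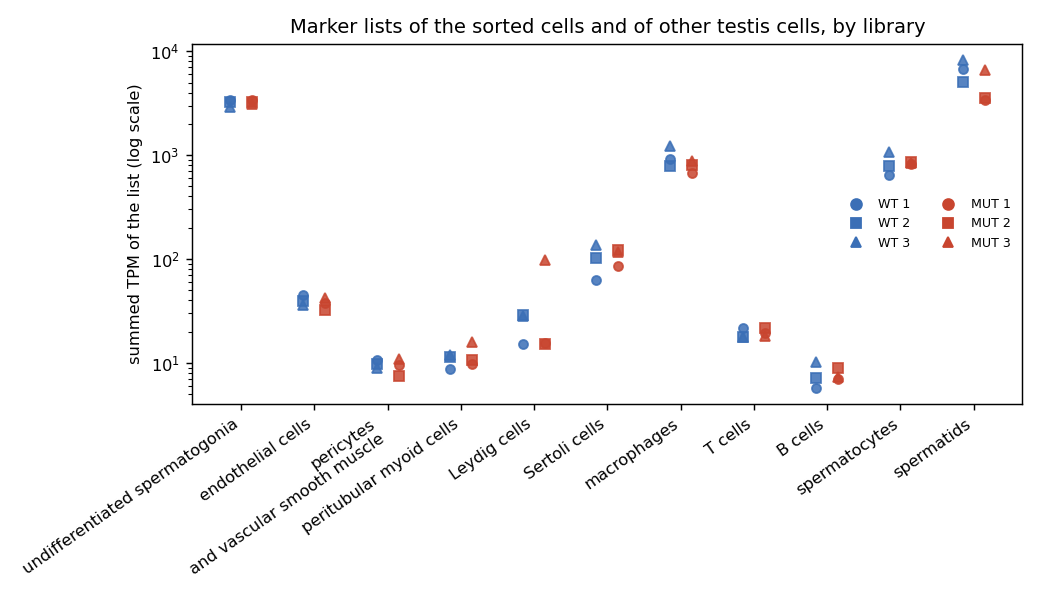
Summed TPM on a log axis of the markers of undifferentiated spermatogonia and of 10 other testis cell types, one symbol per library, with WT in blue and MUT in red. The undifferentiated list lies between 2895 and 3378 TPM in all libraries, the groups overlap for each list, and MUT 3 stands out for Leydig cells at 97.6 TPM.

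Across the 11 marker lists no gene was called in the edgeR fit and no sum separated WT from MUT. Spermatid markers summed to 6760, 5050 and 8187 TPM in WT replicates 1, 2 and 3 and to 3414, 3554 and 6573 TPM in MUT replicates 1, 2 and 3, lower in MUT in each same-numbered pair. Of these *Prm1*, a protamine gene, had a log2 fold change of -0.62 (95% interval -1.22 to -0.014, unadjusted p = 0.046 and adjusted p = 0.998 from edgeR). Spermatocyte markers summed to between 644 and 1078 TPM in WT and between 816 and 855 TPM in MUT, Sertoli cell markers to between 63.1 and 137 TPM and between 86.1 and 121 TPM, peritubular myoid cell markers to between 8.76 and 11.8 TPM and between 9.78 and 15.7 TPM, and B cell markers to between 5.79 and 10.2 TPM and between 7.01 and 8.98 TPM. WT 3 was the lowest library for *Itga6*, *Cdh1* and *Thy1* and the highest for *Itgav*. It was also the highest for spermatocyte, spermatid, macrophage, Sertoli and B cell markers. The part of those cells in its values of *Itga6*, *Cdh1*, *Thy1* and *Itgav* was not tested.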

How the data were processed

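RNA from tdTomato+ MCAM-bright spermatogonia of 3 WT and 3 MUT mice was sequenced as stranded mRNA libraries, each mouse as 1 library. The counts deposited by the authors are unnormalized fragments per gene name. Per the file headers they were made by featureCounts 1.6.2 with GENCODE vM17 on GRCm38.p6, to which tdTomato had been appended. Strand was disregarded, and multi-mapping fragments and those over several names were not counted. The submitters' processing notes name STAR. Reads of a gene and of an antisense partner therefore cannot be told apart. Exon lengths came from the same deposited tables.

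Tables of the 6 libraries were merged on gene name. In R 4.3.3, edgeR 4.0.16 (TMM, filterByExpr, quasi-likelihood test, genotype as the only term) tested 19656 genes, with Benjamini-Hochberg adjustment over all of them and a threshold of 0.1. CPM were TMM-normalized and TPM were computed from counts and exon length. Standard errors followed from the F statistic. Ratios were compared by exact two-sided permutation tests. Replicates of a group differed by more than counting noise (chi-square per degree of freedom 4.26 to 24.5). Floors and counting errors cover counting only, since PCR duplicates could not be separated.

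The members and lists were chosen with earlier results of these data known. The genes named were the 10 markers, *Gfra1*, tdTomato and *Hras*, any called gene of the family lists, in each family list the 2 most abundant other genes and the 1 with the smallest unadjusted p, cell type genes where a list moved with a member, and the 3 genes most like *Mcam*; *Itga9*, *Itga10*, *Ret*, *Etv5* and *Lin28a* beside *Mcam*, *Prm1*, *Cdh3*, and the partner chains *Itgb3*, *Itgb4*, *Itgb6* and *Itgb8* were added after their values were seen. *Afdn* of the cadherin list was not analysed here.

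The labels number the replicates 1 to 3 in both groups, and the study's controls were littermates. Deviations from the group means of 10583 genes with at least 10 CPM correlated at 0.304, 0.156 and 0.395 between libraries of the same number. Each was above 0.1, so the numbers were tried as pairs in a block, as an alternative. The main fit did not use them. With 3 pairs, an exact test that flips the sign of each pair cannot give a p below 0.25. WT 2 correlated more with MUT 1 (0.326) than with MUT 2, and the sources used here do not say which littermates were paired. The other alternatives were DESeq2 1.42.0, limma 3.58.1 voom, DESeq2 size factors, no filter, at least 10 counts in every sample, a threshold of 0.05, and each library left out in turn. On counts simulated for this comparison over 19656 genes, the fit recovered 82 of 197 genes changed 1.5-fold, 137 of 195 changed 2-fold and 194 of 200 changed 4-fold. It also called 20, 16 and 27 unchanged genes in these 3 simulations. The 95% intervals held the true change for 95.4%, 91.3% and 93.5% of the changed genes. Promoter sequences are RefSeq's on GRCm38.p6.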

Additional observations from a re-analysis of the deposited data

How the results depend on the processing

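No surface marker gene was called in any fit, and their lowest adjusted p over 14 alternatives each was 0.43, for *Mcam* without WT 3 and MUT 3. Over all genes, 2 were called by edgeR, 1 at an adjusted p of 0.05, 9 by DESeq2, 4 by limma voom, 5 without a filter and 0 under a minimum of 10 counts per library, for which 479 had an unadjusted p under 0.05. With the replicate number as a block, pairing WT and MUT libraries, the counts were 13 in edgeR and 55 in DESeq2, and the block changed no call among the markers or the family lists. With 1 library left out the count ranged from 0, without MUT 2 (292 at an unadjusted p under 0.05), to 6, without MUT 3, with 5 without WT 3 and 1 without MUT 1. Leaving out WT 3 and MUT 3 together, an alternative chosen after seeing the data, gave 456 of 19597 genes tested, 46 higher and 410 lower. Of the 98 family genes tested there, 1 was called, *Itgb5* (log2 fold change -0.42, adjusted p = 0.032 in edgeR against 0.998 with all libraries). The cause of the change in counts was not tested. With transcript lengths, also chosen after seeing the data, 6 of 10 markers kept their rank.

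*Mcam*, *Cdh1*, *Itgav* and *Tspan8* kept their sign in all 14 alternatives. With 1 library left out, the log2 fold change ranged from -0.23 to -0.092 for *Mcam*, from 0.0052 to 0.36 for *Cdh1*, from -0.30 to -0.17 for *Itgav*, from -0.14 to -0.015 for *Tspan8*, from -0.12 to 0.059 for *Itga6*, from -0.037 to 0.053 for *Itgb1*, from -0.23 to 0.23 for *Thy1*, from -0.10 to 0.14 for *Epcam*, from -0.13 to 0.013 for *Cd9* and from -0.11 to 0.078 for *Cd24a*. The sign turned for *Itgb1* under the minimum of 10 counts per library (-0.0025) and for *Cd24a* without WT 3 and MUT 3 (0.15). The lowest unadjusted p of edgeR were 0.022 for *Itgav* without MUT 2 and 0.039 for *Mcam* without WT 3. At 3 libraries per group the fit simulated over all genes tested found 82 of 197 changes of 1.5-fold, so calls of that size could be missed among genes at large. For the markers the 95% intervals of the edgeR fit with all libraries give a closer bound. Only those of *Cdh1* (fold 0.860 to 1.51) and *Thy1* (fold 0.631 to 1.42) reached a 1.5-fold change in either direction.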
